A study of Mus musculus with 5 samples.

Results

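The reads described here are those of the *Cdkn1c* amplicon, 1 of 3 amplified genes with deep coverage on chromosome 7 in 5 sequencing libraries. They were taken as all reads that the pileups place between positions 143458495 and 143458896 of chromosome 7 on mouse genome build GRCm38, a stretch of 402 bp. *Cdkn1c* (ENSMUSG00000037664.13, chr7:143458339-143461050, reverse strand) encodes p57, an inhibitor of cyclin-dependent kinases that restrains the cell cycle. The gene is imprinted: the copy inherited from the mother is transcribed and the copy inherited from the father is kept largely silent. In the developing neocortex, radial glial progenitors (RGPs) divide next to the ventricle and give rise to the cortical projection neurons.

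All libraries came from embryonic day 12 F1 hybrids of a C57BL/6J mother (B6) and a CAST/EiJ father (CAST), in which a single nucleotide polymorphism (SNP) marks the parent of origin of each read. Neuron replicates 1 and 2 were cDNA of 10000 sorted neocortical cells each that were negative for Prominin-1 and CD15, and RGP replicates 1 and 2 were cDNA of 10000 sorted cells each that were positive for both markers. Cells positive for CD11b, CD31 or CD45 had been removed from both sorts. The control was genomic DNA from the carcass of 1 embryo of the same cross, which carries each parental copy in equal number. RNA was treated with DNase before it was copied into cDNA, and the same *Cdkn1c* PCR was run on cDNA and on genomic DNA. The labels do not say whether the replicates came from separate animals, so p-values between groups measure only the spread between these libraries. Expression of marker genes of the sorted cell types was not analysed here.

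The whole amplicon lies in the untranslated part of exon 4, at positions 143458339 to 143459021 in transcript Cdkn1c-202 and 143458342 to 143459021 in transcript Cdkn1c-201. None of the 6 annotated introns of the gene lies within it. Its only strain difference is A143458858G (maternal B6 base, position on the forward strand, paternal CAST base). Among the 194 positions with a depth of at least 1000 in the genomic DNA, the minor base reached 48.8% at the SNP and at most 0.0903% at any other position. The SNP and the junctions of the 6 skipped stretches that recurred in at least 10 reads of a library are printed because the results below turn on them. The first line gives the reference sequence around the SNP (chr7:143458848-143458868) with the SNP in capitals. Each further line gives the 12 bases on either side of a junction, joined as in the reads and read on the forward strand. Capitals there mark the word that the reference holds at both ends of the skipped stretch and the reads hold once.
SNP site: gagtgttctcAatacattgca
107-base gap: tctctttttgttTTGCACagtttt
21-base gap: ctgaagctggtgAatcaataaccc
84-base gap: ttgttttgcactGAGtgttctcaa
85-base gap: gagattaaacatTTTtcagatttc
127-base gap: agtagatttacaTTTGTacaaata
80-base gap: ttttacataaatGATTTccacaaa

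Reads entered the amplicon from both ends. On the SNP side they were reverse-strand reads of 97 bases that mostly began at 143458797, and on the far side they were forward-strand reads that mostly began at 143458498. The pileups held 29860 to 29961 SNP-side reads and 30010 to 30014 far-side reads per library, because depth stopped near 30000 at each side in all 5 libraries. Read numbers therefore do not measure the amount of *Cdkn1c* RNA. Reads that began before 143458797 entered before the limit was reached, so a share of such reads among SNP-side reads is an upper bound. Outside the amplicon the gene had no covered base more than 10 positions away in any library.

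The maternal base prevailed in cDNA and both bases were about equal in genomic DNA. Maternal bases outnumbered paternal bases 15.8 to 1 in Neuron replicate 1, 27.2 to 1 in Neuron replicate 2, 53.8 to 1 in RGP replicate 1 and 54.3 to 1 in RGP replicate 2, against 0.952 to 1 in the genomic DNA. As shares of the paternal base at a base quality of at least 30, these were 5.95%, 3.54%, 1.82% and 1.81% of 29191 to 29854 allele bases, and 51.2% of 29884 in the genomic DNA. The 95% Wilson intervals of the cDNA libraries were 5.69% to 6.23%, 3.34% to 3.76%, 1.68% to 1.98% and 1.66% to 1.97%. Both neuron libraries were above both RGP libraries, with means of 4.75% ± 1.70 (SD, n = 2) and 1.82% ± 0.011 (SD, n = 2). With 6 arrangements of the libraries an exact permutation test (two-sided) cannot go below p = 0.33, the value found here, so this design cannot separate the groups at the 0.05 level. All 4 cDNA shares were below that of the genomic DNA by Fisher's exact test, with values of p too small to be represented. The cDNA libraries were compared with each other by two-sided Fisher's exact tests on reads, which set libraries and not conditions against each other. The RGP libraries did not pass this exact test (adjusted p = 0.902, difference 0.0155 percentage points), whereas the neuron libraries differed from one another by 2.41 points (adjusted p = 2e-43). PCR reads without molecular identifiers are not independent molecules, and all intervals cover counting error only.

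Reads that skipped the SNP carried no allele. They numbered 649 in Neuron replicate 1, 464 in RGP replicate 1 and 644 in RGP replicate 2, and 0 in Neuron replicate 2 and the genomic DNA. If every one of them had come from the paternal copy, the paternal share would have been 8.00%, 3.35% and 3.93% in those libraries, and if every one had been maternal it would have been 5.83%, 1.80% and 1.77%. In the first case RGP replicate 2 would have stood above Neuron replicate 2, whose share of 3.54% does not move. The order of the groups thus rests on the reads that cover the SNP. Reads that skipped it mostly began before 143458797 and were kept while ungapped reads were dropped. Their weight is therefore overstated, and the shares in both cases are outer bounds.

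**Figure D1:**
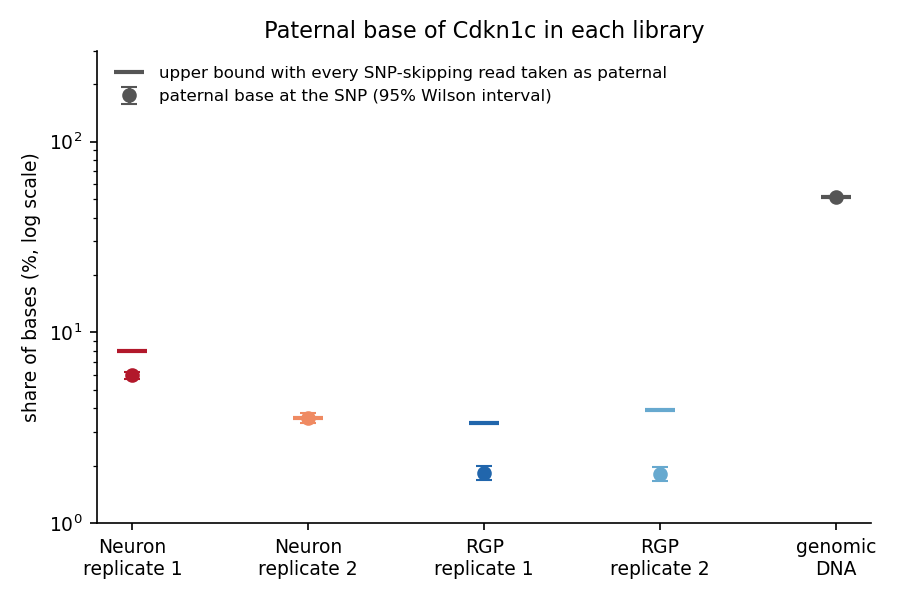
The points show the paternal share of allele bases at the *Cdkn1c* SNP in each library with 95% Wilson intervals, on a log axis, and the horizontal marks show the share if every read that skipped the SNP were paternal. The 4 cDNA points lie between 1.81% and 5.95%, and the genomic DNA lies at 51.2%. Mark and point coincide there and in Neuron replicate 2, which had no read that skipped the SNP.

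Paternal and maternal reads were compared for other mismatches. Among SNP-side reads without a gap, 1.84% of 1740 paternal reads and 2.22% of 26766 maternal reads in Neuron replicate 1 held another mismatch. The values were 1.99% and 2.39% in Neuron replicate 2, 2.43% and 2.36% in RGP replicate 1, 2.85% and 2.63% in RGP replicate 2, and 1.86% and 1.75% in the genomic DNA. None of these 5 pairs passed Fisher's exact test (adjusted p = 0.812 to 0.885), and the widest paternal interval reached from 1.73% to 4.64%.

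Reads with a gap inside the amplicon were found in all 4 cDNA libraries and not in the genomic DNA. A gapped read is one that the aligner split, leaving out a stretch of the reference as it would an intron. Within the amplicon they numbered 1350 in Neuron replicate 1, 892 in Neuron replicate 2, 464 in RGP replicate 1 and 690 in RGP replicate 2, against 0 of 60269 reads in the genomic DNA. On the SNP side they made up 4.51%, 0%, 1.55% and 2.16% of reads, and on the far side 0%, 2.97%, 0% and 0.150%. Each library thus had most of its gapped reads on a single side, Neuron replicate 2 on the far side and the others on the SNP side.

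At position 143458807, 51 bases from the SNP, gap symbols were most frequent over all libraries. They numbered 1350 of 29999 reads in Neuron replicate 1, 1 of 29996 in Neuron replicate 2, 464 of 29999 in RGP replicate 1, 644 of 29998 in RGP replicate 2 and 0 of 30001 in the genomic DNA, where a count of 0 allows a share of up to 0.0100%. By Fisher's exact test 3 of 4 cDNA libraries were above the genomic DNA there, and Neuron replicate 2 was not (adjusted p = 0.5). At position 143458577 gap symbols of forward-strand reads, those of the far side, were most frequent, with 892 of 30035 reads in Neuron replicate 2 and 45 of 30038 in RGP replicate 2. Both were above the 0 of 30032 in the genomic DNA (Fisher's exact test, adjusted p = 2.45e-271 and 7.99e-14), while Neuron replicate 1 and RGP replicate 1 also had 0 on the forward strand. The positions tested were chosen by the gap symbols of these same libraries. Reads that share a junction carried no molecular identifiers, so the p-values at both positions do not measure how many molecules held a gap.

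**Figure D2:**
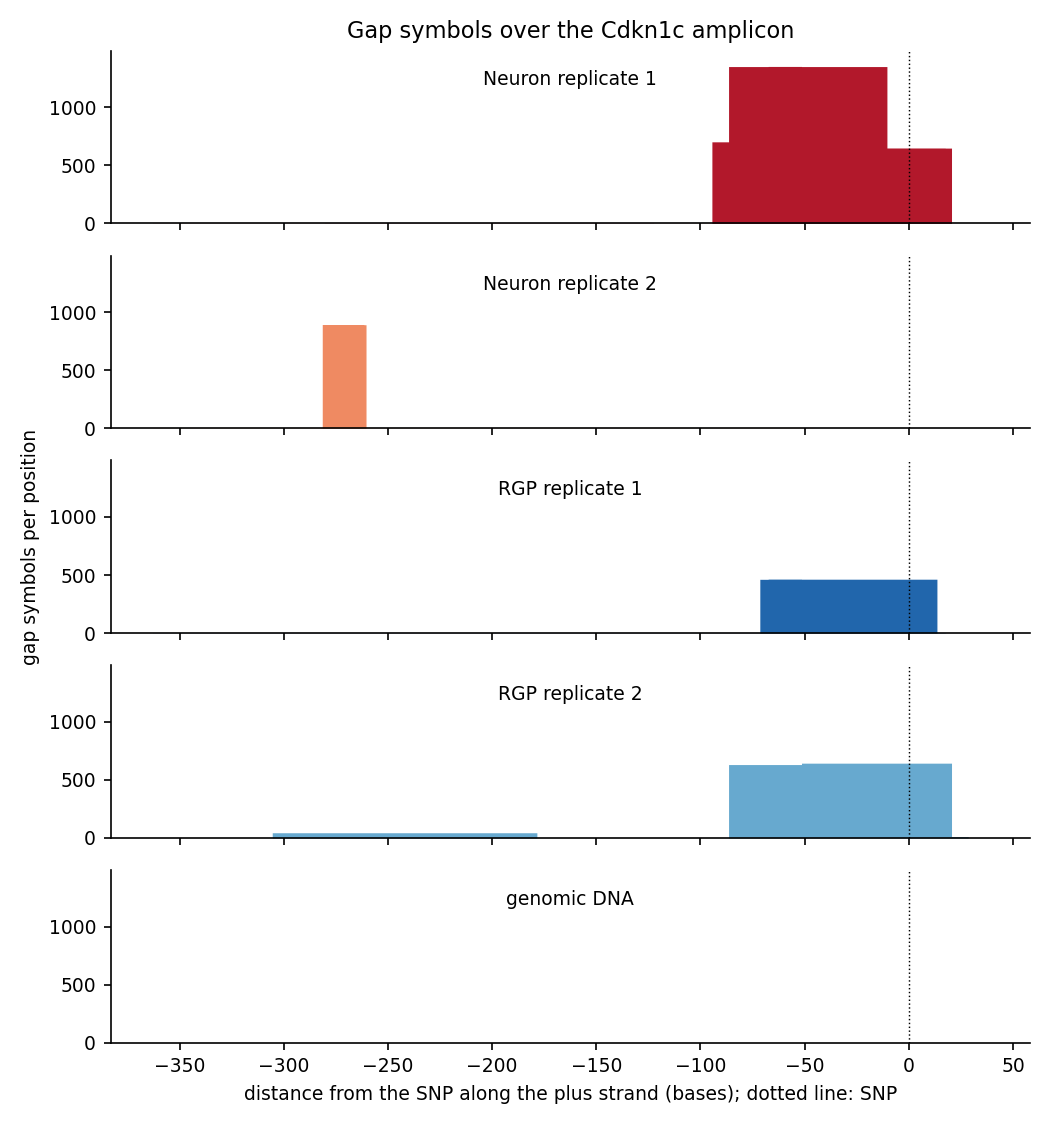
Each panel shows 1 library and plots the number of reads with a gap symbol at each position of the *Cdkn1c* amplicon against the distance from the SNP. Blocks with sharp edges stand on the SNP side in 3 libraries and on the far side in Neuron replicate 2, a low block of 45 reads stands on the far side of RGP replicate 2, and the genomic DNA panel is empty.

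Neurons and RGPs did not separate in gap symbols averaged over the amplicon. Averaged over the 402 positions, gap symbols made up 7.68% of depth in Neuron replicate 1, 1.18% in Neuron replicate 2, 2.28% in RGP replicate 1, 11.8% in RGP replicate 2 and 0% in the genomic DNA. The groups overlapped, with means of 4.43% ± 4.59 in neurons and 7.02% ± 6.70 in RGPs (SD, n = 2 each, exact permutation p = 0.667). This mean gives the same weight to the middle of the amplicon, where few ungapped reads reach. Over the 194 positions with a depth of at least 1000 in the genomic DNA the difference turned from −2.59 to 0.134 percentage points.

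Of the 3396 gapped reads, 3389 belonged to 6 stretches with fixed ends, and 5 of the 6 were found in a single library. The most frequent was a 107-base gap, deposited at chr7:143458772-143458878, with 648 reads in Neuron replicate 1 and 632 in RGP replicate 2 and none in the other libraries. It was the only one that 2 libraries shared, and these came from different sorts. A 21-base gap at chr7:143458577-143458597 had 890 reads, all in Neuron replicate 2. An 84-base gap at chr7:143458764-143458847 had 700 reads, all in Neuron replicate 1. An 85-base gap had 462 reads in RGP replicate 1, and a 127-base gap and an 80-base gap had 45 and 12 reads in RGP replicate 2. The 107-, 85- and 80-base gaps took out the SNP.

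**Figure D3:**
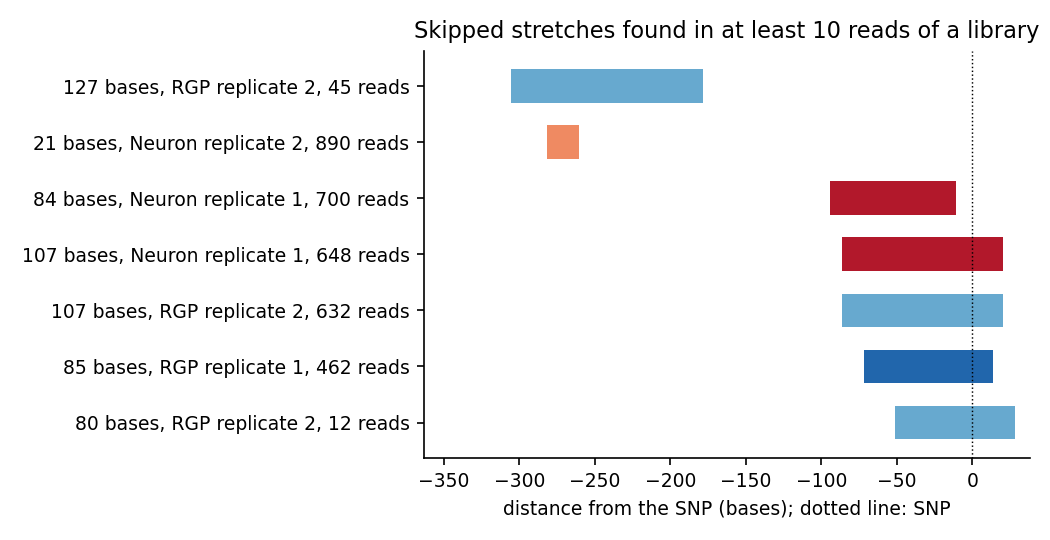
Bars show the deposited extent of each skipped stretch relative to the SNP, with 1 bar per stretch and library, coloured by library and labelled with its length and number of reads. Only the 107-base stretch has bars in 2 libraries, 648 reads in Neuron replicate 1 and 632 in RGP replicate 2.

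None of the 6 stretches could have both ends at an annotated *Cdkn1c* intron, because they were sought inside the amplicon and no such intron lies within it. Introns usually begin with GT and end with AG on the gene's strand, and as deposited this held for 1 of the 6, the 80-base gap with 12 reads. That placement left 3 bases of the read unlike the reference, and the deposited placement of the 107-base gap left 7. On the gene's strand the deposited 107-base gap began with CT and ended with AC, which read GT and AG on the opposite strand. Moved along the reference by a script, each of the 6 stretches had a placement at which the read matched the reference at every base. For the 107-base gap the first such placement was chr7:143458757-143458863. No placement without a mismatch had GT and AG at its ends on the gene's strand, for any of the 6 stretches. Ends on the opposite strand were not checked for these placements. The 3 stretches that took out the SNP did so at each placement without a mismatch. In every stretch the exact placements slid over a word that the reference repeats at both ends, 6 bases long for the 107-base gap, 5 for the 127- and 80-base gaps, 3 for the 84- and 85-base gaps and 1 for the 21-base gap, as the capitals in the printed junctions show. How often such words occur at random ends was not tested.

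The depth limit bears on the SNP-side gaps. Reads with the 107-, 84- and 85-base gaps usually began at 143458690, 143458713 and 143458712, before the limit position, and so were all kept while ungapped reads were dropped. Ungapped reads that began and ended 1 base early and were kept in the same way numbered 416 in Neuron replicate 1, 498 in Neuron replicate 2, 414 in RGP replicate 1 and 362 in RGP replicate 2. Per such read there were 3.24 and 0 SNP-side gapped reads in neurons and 1.12 and 1.78 in RGPs, which left the order of the libraries as it was. On the far side 29862 to 29898 reads per library began at 143458498, which was also the usual start of the reads with the 21- and 127-base gaps.

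The 84-base gap was the only frequent one that stopped short of the SNP on the same read, so its allele could be read, and it was maternal throughout. Of its reads in Neuron replicate 1, 699 carried the maternal base and 0 the paternal base (0%, 95% Wilson interval 0% to 0.547%). The reads of the same library without a gap had 1740 paternal bases of 28508, or 6.10%, a share at which 699 reads would hold 42.7 paternal bases. Fisher's exact test within this library gave p = 3.28e-19 for the difference of −6.10 percentage points. The test and the interval treat reads as independent. These reads shared 1 junction in 1 library and carried no molecular identifiers, so the number of molecules behind them is not known. An association of the gap with the maternal allele therefore cannot be read from the p-value. The other libraries had no gapped read with an allele, so no such comparison could be made in them. The alleles of the 21- and 127-base gaps on the far side were not known, since their reads end before the SNP.

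Small deletions, which the pileups write at single positions, were present in every library. They came to 734 deletion symbols in Neuron replicate 1, 1083 in Neuron replicate 2, 492 in RGP replicate 1, 490 in RGP replicate 2 and 462 in the genomic DNA. Per 1000 bases these were 0.126, 0.185, 0.0842, 0.0839 and 0.0791. Both neuron libraries were above both RGP libraries (0.155 ± 0.042 against 0.0840 ± 0.000233, SD, n = 2 each, exact permutation p = 0.33, again the smallest possible). Over the first 100 positions of the far side alone the difference was 0.0297 per 1000 bases, and the groups no longer separated fully. SNP-side reads with a deletion mostly began before 143458797 and were kept while other reads were dropped, so the depth limit can overstate these rates. By Fisher's exact test both neuron libraries were above the genomic DNA (adjusted p = 5.71e-15 and 1.31e-56), and the RGP libraries did not pass the test (adjusted p = 0.405 for each). The test counts symbols, so a 2-base deletion counts at both of its positions and a recurrent deletion counts once per read. Its p-values thus do not measure how often deletions arose. Deletions of 1 base made up 353 of the 406 deletions in reads of the genomic DNA, and the longest in any library had 4 bases. Insertion marks numbered only 2 to 6 per library.

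Some deletions were present in every library in similar numbers, and others were most frequent in 1 library. A deletion in a run of 3 T at 143458808 was the most frequent in RGP replicate 1 and in the genomic DNA. It had 49 and 74 reads in neurons, 84 and 52 reads in RGPs, and 61 reads in the genomic DNA. The deletions at 143458818, in a run of 3 G, and at 143458880, in a run of 3 T, were chosen after their values were seen and were likewise present in every library, with 43 to 70 and 31 to 44 reads per library. In contrast, Neuron replicate 2 had 297 reads with a deletion in a run of 4 T at 143458872, against 78 in RGP replicate 2, 33 in each of Neuron replicate 1 and RGP replicate 1 and 24 in the genomic DNA. It also had 275 reads with a deletion of the single C at 143458826, against 1 in the genomic DNA and 0 elsewhere, a deletion again named after its values were seen. On the far side, a 2-base deletion at 143458564 to 143458565 had 115 reads in Neuron replicate 1 and 0 in every other library. RGP replicate 2 had 48 reads with a deletion at 143458567, against at most 1 elsewhere.

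Without the 7 deletions that reached 40 reads in a library, the rates per 1000 bases were 0.0565 and 0.0553 in neurons, 0.0487 and 0.0407 in RGPs and 0.0503 in the genomic DNA. The difference of neurons over RGPs fell from 0.0714 to 0.0112 per 1000 bases. This alternative was chosen after the deletions were seen.

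**Figure D4:**
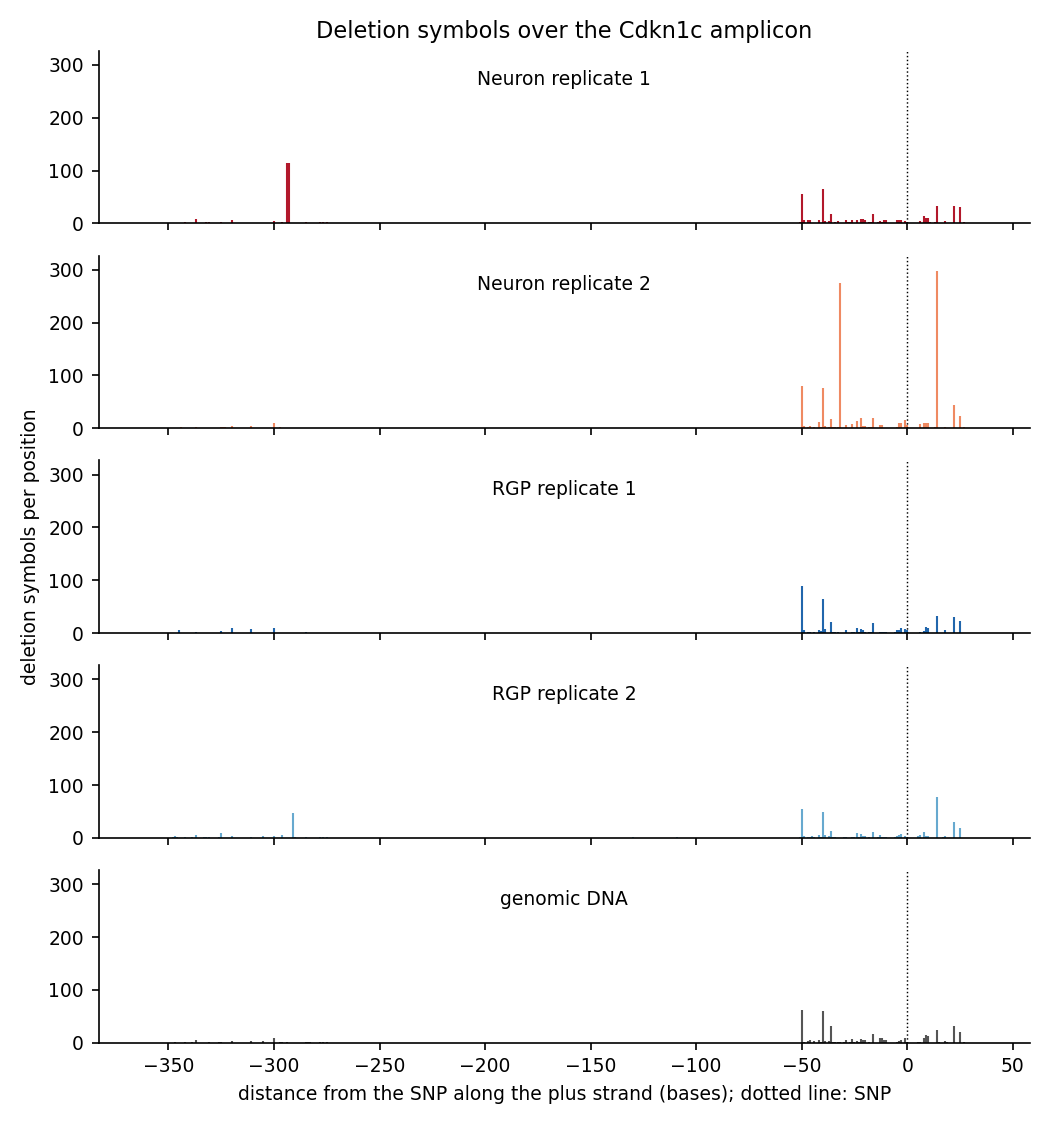
Each panel plots the number of reads with a deletion symbol at each position of the *Cdkn1c* amplicon in 1 library, by distance from the SNP. Lines at 50 and 40 bases before the SNP stand in every panel, whereas the tallest lines, 297 and 275 reads in Neuron replicate 2 and 115 reads in Neuron replicate 1, have no counterpart of that height elsewhere.

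The alleles of deletion reads on the SNP side were compared with those of the other ungapped reads of the same library. In the genomic DNA the deletion at 143458808 was on 31 maternal and 30 paternal reads. In Neuron replicate 2 it was on 71 maternal and 3 paternal reads, or 4.05% paternal, beside 3.54% in the other ungapped reads (Fisher's exact test, adjusted p = 1). The deletion at 143458826 in the same library was on 275 maternal and 0 paternal reads, and that at 143458872 on 295 maternal and 2 paternal reads (0.673%), where the other ungapped reads had 3.58% and 3.57%. These were the only 2 of 22 pairs of deletion and library that passed Fisher's exact test after adjustment (adjusted p = 0.00215 and 0.0415), a family chosen after the deletions were seen. Reads that share a deletion in 1 library carried no molecular identifiers, so the number of molecules behind them is not known and the tests do not show an allele association. In RGP replicate 1 the deletions at 143458808 and 143458818 had paternal shares of 5.95% (5 of 84 reads) and 7.55% (4 of 53), beside 1.81% and 1.82% in the other reads, and did not pass the exact test (adjusted p = 0.104 for each). In RGP replicate 2 the deletion at 143458872 was on 78 maternal and 0 paternal reads, which at a share of 1.81% in the other reads did not pass the same exact test (adjusted p = 0.997). No read of Neuron replicate 2 carried both frequent deletions.

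**Figure D5:**
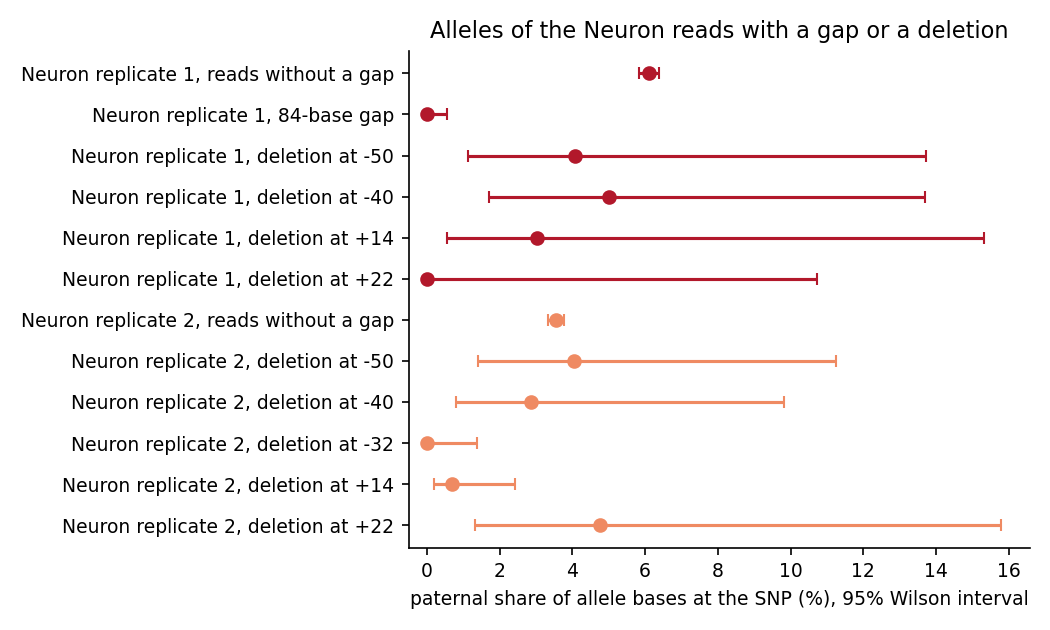
Points show the paternal share at the SNP in neuron reads without a gap, with the 84-base gap, or with a deletion found in at least 30 reads, labelled by its distance from the SNP, and bars are 95% Wilson intervals. The 84-base gap of Neuron replicate 1 and the deletions 32 bases before and 14 bases after the SNP in Neuron replicate 2 lie below the interval of the ungapped reads of their library, and the intervals of the other deletions overlap it.

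Mismatches away from the SNP were counted at a base quality of at least 30. They came to 1.03 per 1000 bases in Neuron replicate 1, 0.271 in Neuron replicate 2, 0.236 in RGP replicate 1, 1.04 in RGP replicate 2 and 0.192 in the genomic DNA. The 2 high libraries are those with the 107-base gap, and gapped reads held 4551 of the 5943 mismatches in Neuron replicate 1 and 4456 of the 6025 in RGP replicate 2. Without gapped reads the rates were 0.245, 0.273, 0.237 and 0.274 in the cDNA libraries, and all 4 remained above the 0.192 of the genomic DNA by Fisher's exact test on bases. A recurrent mismatch counts once per read in this test, so its p-values do not measure how often mismatches arose. The groups overlapped (exact permutation p = 1).

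Among reads without a gap, the most frequent mismatch of each cDNA library was rare or absent in the genomic DNA. The 7 unlike bases of the deposited 107-base gap, with 648 reads in Neuron replicate 1 and 632 in RGP replicate 2, are left out here. In Neuron replicate 1 it was A143458544G, with 134 reads, or 0.448%, against 2 to 7 reads in the other cDNA libraries and 0 in the genomic DNA. It was T143458589C with 43 reads in Neuron replicate 2, which also had 30 reads in RGP replicate 2. In RGP replicate 1 it was A143458813C with 60 reads, against at most 1 elsewhere, and 60 of its 60 reads were maternal. In RGP replicate 2 it was T143458853C with 59 reads, 58 of them maternal and 1 paternal, against 5 to 10 elsewhere. The most frequent mismatch of the genomic DNA, C143458886A, had 27 reads there and 18 to 22 in each cDNA library, and its genomic reads were 15 maternal and 12 paternal. At paternal shares under 2% in RGPs, 60 reads are too few to show whether a mismatch avoids the paternal allele.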

How the data were processed

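The 5 deposited files are samtools pileups of amplicon reads that the authors aligned to GRCm38 with STAR. Per the submitters' processing notes these were STAR 2.5.0c and SAMtools 1.3. Depth is a read count per position as the authors deposited it, not normalized, and bases under a quality of 14 do not occur. Gaps at least as long as the aligner's intron minimum appear as gap symbols and shorter ones as deletions. Reads were followed from position to position through their start marks, end marks and qualities, which the pileups keep in order. In at least 99.95% of checked SNP-side reads, the length and the deletions fitted. On simulated data, 300 of 300 pileup lines were read without error, and 193 gapped reads with an allele were found for 185 simulated, 1 of them with a wrong allele. Alleles and mismatches used a base quality of at least 30. Groups were compared by two-sided exact permutation tests and libraries by Fisher's exact test, adjusted after Benjamini and Hochberg over the 10 pairs of each measure (scipy 1.17.1, numpy 2.4.6, numba 0.67.0, Python 3.11.15). Annotation was GENCODE M21 on GRCm38. Positions were named if they were the SNP, ends of frequent gaps, or the most frequent deletion of a library, or its most frequent mismatch in ungapped reads. Other genes were named only as comparison amplicons. The gene, lists and tests were chosen with earlier results of these data known.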

Additional observations from a re-analysis of the deposited data

Results flagged for a closer look

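Gapped reads also lay in the 2 other amplicons, which the comparisons above do not use. At the position of each amplicon with the most gap symbols, the whole 95% Wilson interval of a cDNA library lay above that of the genomic DNA in 4 cases. At *Ndn* it was 0.273% in Neuron replicate 1 (82 of 30036 reads) and 0.0433% in RGP replicate 2 (13 of 30031), against 0 of 30002 in the genomic DNA. At *Inpp5f* it was 0.772% in Neuron replicate 1 (96 of 12429) and 1.81% in RGP replicate 1 (345 of 19070), against 1 of 16976 in the genomic DNA. In Neuron replicate 2 the *Inpp5f* share was 0.0505% (9 of 17817), above the upper bound of the genomic DNA, 0.0334%, but with an interval of 0.0266% to 0.0960% that overlaps it. By non-overlapping intervals, Neuron replicate 1 was the only library above the genomic DNA in all 3 amplicons.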

How the results depend on the processing

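Of 62 alternatives computed, 49 kept direction and side of the threshold. Neurons over RGPs in the paternal share was 2.93 points and ranged from 1.73 to 4.14 with single libraries left out. It fell to 1.20 on the forward strand alone, where the groups no longer separated fully (exact permutation p = 1). That value rests on very few reads, since nearly all reads over the SNP were on the reverse strand. In Neuron replicate 1 the depth at the SNP was 29925, and the reverse-strand SNP-side reads numbered 29910. Pooled over reads the difference was 2.92 points with a Fisher p of 8.18e-180, which sets reads and not libraries against each other. With the replicate number as a block it was again 2.93 (exact sign-flip p = 0.5). By the same exact test the block left −2.59 for gaps (p = 1), 0.0714 for deletions (p = 0.5), −8.56e-05 for insertions (p = 0.5) and 0.0106 for mismatches (p = 1), so it changed no call. Same-numbered libraries correlated at r = 0.0812 in their deviations over 193 positions, which leaves it unknown if equal numbers mark shared animals or batches. The gap difference turned to 17.2 points for the largest value at any position, 0.134 at deep positions, 0.367 on the reverse strand and 0.173 per early ungapped read, and ranged from −7.33 to 2.15 without single libraries. The insertion difference turned to 0.000174 at deep positions and 0.000344 on the far side and ranged from −0.000257 to 8.55e-05. The mismatch difference ranged from −0.391 to 0.412 and the deletion difference from 0.0416 to 0.101. Over the first 100 far-side positions, an alternative not planned in advance, the deletion difference kept its direction at 0.0297. The cause of these turns was not tested. With 2 libraries a group, no test between groups could pass 0.05, and the depth limit keeps read numbers from measuring abundance.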

Other observations

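A few gapped *Cdkn1c* reads left the amplicon, 2 in Neuron replicate 1 and 1 each in the genomic DNA, RGP replicate 1 and Neuron replicate 2. Positions outside the amplicon with a covered base numbered 4 to 6 of 2310 in the gene, with at most 11 bases at any of them.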
